A study of Mus musculus with 4 samples.

Results

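The genes described are the enzymes of prostaglandin and leukotriene synthesis and the receptors of prostaglandin E2, as measured in G-MDSC (granulocytic myeloid-derived suppressor cells) and in neutrophils. The 10 genes were chosen by name (Ptgs1, Ptgs2, Ptges, Ptger2, Ptger4, Alox5, Alox5ap, Alox15, Ltc4s and Lta4h), and all probe sets annotated with 1 of these symbols alone were taken. This gave 15 probe sets for 9 of the 10 genes, out of 18193 genes named by a single symbol on the array. No probe set carried the symbol Ptgs1 alone, so Ptgs1 was not analysed here. Total RNA was hybridized to 4 Affymetrix arrays, 1 per sample. G-MDSC (CD11b+Ly6G+Ly6Clow, 2 samples) were isolated from the spleens of C57BL/6 mice 3.5 weeks after subcutaneous EL4 lymphoma cells had been given, using Ly6G microbeads. Neutrophils (2 samples) were washed from the peritoneum of C57BL/6 mice that had received 2 injections of 1.5 ml of 12% casein, a milk protein that provokes inflammation, 16 h apart, and the cells were taken 3 h later. These cells were depleted of F4/80-positive cells before selection for Ly6G. All mice were female, and their age is not in the labels. It is also not stated that the replicates came from different animals, so the p-values speak only of the scatter of these 4 arrays, which could be technical. No group of untreated mice or of G-MDSC from the peritoneum was analysed here, so cell kind cannot be told apart from tissue, tumour, casein or sorting.

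Eicosanoids are short-lived lipid signals made from arachidonic acid, which phospholipase A2 releases from membranes. In the prostaglandin branch, a cyclooxygenase (constitutive Ptgs1 or inducible Ptgs2) makes prostaglandin H2, the synthase Ptges turns it into prostaglandin E2, and the receptors Ptger2 and Ptger4 pass the signal on by raising cyclic AMP. In the leukotriene branch, Alox5, helped by its membrane partner Alox5ap, makes leukotriene A4, which Lta4h turns into leukotriene B4, a strong attractant of neutrophils, or Ltc4s turns into leukotriene C4, the first of the cysteinyl leukotrienes. Alox15 is a lipoxygenase that oxygenates arachidonic acid at other positions. Neutrophils are known as makers of leukotriene B4, and prostaglandin E2 is known for its part in the biology of suppressor cells.

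Neutrophils replicate 2 stood apart from the other arrays at the dim end of the scale. Signals are linear intensities, and the median signal was 75.8 to 83.3 in 3 arrays and 177.9 in neutrophils replicate 2. The 40th percentile, used here as a mark of a dim signal, was 45.7 to 52.6 in the same 3 arrays and 132.7 in neutrophils replicate 2. The granulocyte marker Csf3r, the receptor for granulocyte colony-stimulating factor, was bright in every array (14881 to 27611). Some other neutrophil markers differed between the groups, as given after the pathway. Differences are G-MDSC minus neutrophils on the scale of log2(signal + 16), tested with limma over 13139 genes, with a gene called where its Benjamini-Hochberg adjusted p was under 0.05. Of all genes, 1091 (8.3%) were called higher and 1058 (8.05%) lower in G-MDSC, and the median difference was -0.18. With each array scaled to a common median, the median difference was 0.41 and the split was 924 higher and 395 lower, so the sign of a small difference depends on the scaling.

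Ptgs2, Ptges and the receptor Ptger4 were lower in G-MDSC, and Alox5 and Lta4h, which begin and complete leukotriene B4 synthesis, were higher. Outside the chosen genes, the prostaglandin E synthase Ptges2 was not called and the prostaglandin E2 receptor Ptger3 was called higher, as given with the pathway. Of the 9 measured genes, 4 were called lower (Ptgs2, Ptges, Ptger4 and Ltc4s), 2 were called higher (Alox5 and Lta4h), and 3 were not called (Ptger2, Alox5ap and Alox15). This stands against 8.05% lower and 8.3% higher among all genes. The arrays of the groups did not overlap for the 6 called genes, as was so for 59.5% of all genes tested (27.3% with G-MDSC higher and 32.2% with neutrophils higher). The median difference of the 9 genes was -0.34, and it was 0.06 with quantile normalization and 0.22 with median scaling. In bulk RNA such as this, fewer cells of a type and less RNA per cell cannot be told apart, and many markers of macrophages, monocytes and mast cells, with the platelet genes Pf4 and Ppbp, were lower in G-MDSC too, as given after the pathway. All 6 calls remained with quantile normalization, 4 remained with median scaling, and none remained with limma's variances left unmoderated, where 0 of 13139 genes passed (2379 at an unadjusted p under 0.05, among them 4 of the 9 genes).

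**Figure D1:**
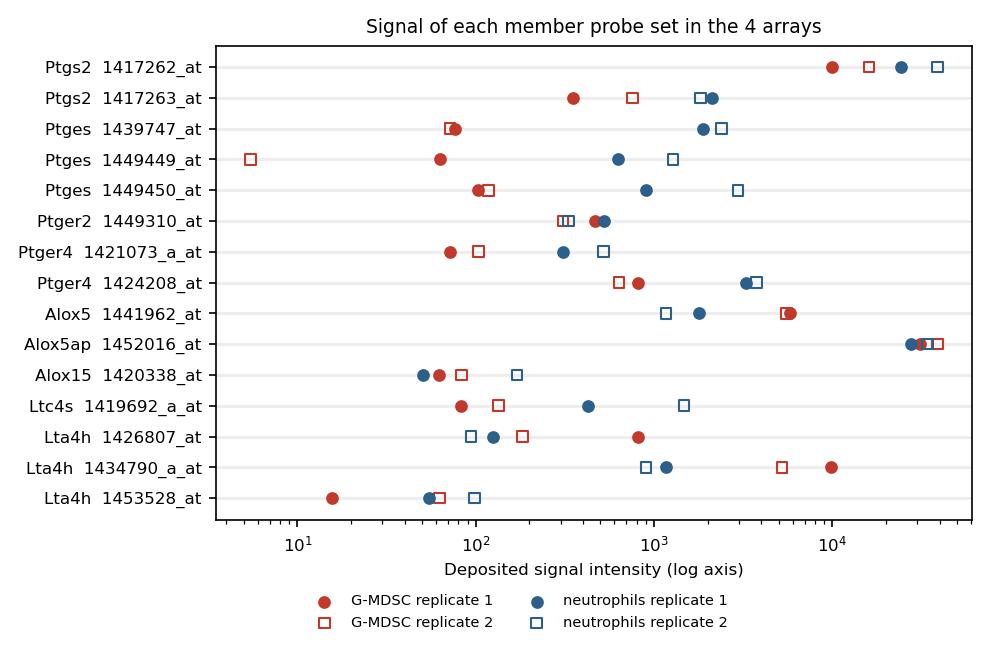
Deposited signal intensity (log axis) of the 15 probe sets of the 9 genes, 1 line per probe set. Red marks are G-MDSC and blue marks neutrophils, filled circles are replicate 1 and open squares replicate 2. The neutrophil marks lie to the right for Ptgs2, Ptges, Ptger4 and Ltc4s, the G-MDSC marks lie to the right for Alox5 and for 2 of 3 Lta4h probe sets, and the groups overlap for Ptger2, Alox5ap and Alox15.

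Ptgs2, the inducible cyclooxygenase, was bright in every array. Its brighter probe set read 9971 and 16073 in the G-MDSC arrays and 24318 and 38989 in the neutrophil arrays. Both neutrophil arrays lay above both G-MDSC arrays, but the gap between the groups was of the order of the gap between replicates. On the log2 scale G-MDSC differed by -1.28 ± 0.36 (SE, n = 2 per group; limma adjusted p = 0.0325), or 2.43-fold lower in G-MDSC. The second probe set read 350 and 755 in the G-MDSC arrays against 2115 and 1825 in the neutrophil arrays. It differed by -1.90 ± 0.41 and was called when all 28754 kept probe sets were fitted (adjusted p = 0.0258; of all probe sets 8.03% were called, 3.72% higher and 4.31% lower), whereas the brighter one was not in that fit (adjusted p = 0.0734). The gene-level call was lost without G-MDSC replicate 1 (-0.94, limma adjusted p = 0.384), with median scaling (-0.64, adjusted p = 0.591), with no filter on dim probe sets (adjusted p = 0.105) and without limma's intensity trend (adjusted p = 0.150). Without neutrophils replicate 2 the difference was also -0.94.

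Ptges, the microsomal synthase that makes prostaglandin E2 from the cyclooxygenase product, showed the largest difference of the 9 genes. Its brightest probe set read 104 and 118 in the G-MDSC arrays and 905 and 2963 in the neutrophil arrays. The G-MDSC arrays were close together, while neutrophils replicate 2 was far above replicate 1. The groups differed by -3.71 ± 0.49 on the log2 scale (SE, n = 2 per group; limma adjusted p = 0.000677), or 13.1-fold lower in G-MDSC. The difference was -4.56 without neutrophils replicate 1 and -2.86 without neutrophils replicate 2. With a neutrophil array left out, the fit holds no spread between neutrophil arrays. Another probe set read 76.6 and 71.9 against 1874 and 2381, and differed by -4.56 ± 0.37. The remaining one read 63.1 and 5.47 against 628 and 1281, and differed by -4.47 ± 0.68. All 3 Ptges probe sets were called lower in the probe set fit (adjusted p = 0.000463 to 0.00663), so the direction did not hang on the choice of probe set.

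The promoters of Ptgs2 and Ptges, the enzymes that act in sequence and were both lower in G-MDSC, are shown for the 250 bases before the annotated start, from RefSeq on GRCm38.p6. The stretch of Ptgs2 is chr1:150099781-150100030 on the plus strand, and that of Ptges is chr2:30903298-30903547 on the minus strand. Capitals mark matches, on either strand, to any of 8 motifs searched in the window from 250 bases before to 50 after the start: the TATA box as TATAAA, the core of a cyclic AMP response element as ACGTCA, the E-box as CACGTG, the C/EBP motif as TTGCNNAA, the AP-1 motif as TGANTCA, the GC box as GGGCGG, the core of a PU.1 motif as GAGGAA, and the kappaB motif.
Ptgs2: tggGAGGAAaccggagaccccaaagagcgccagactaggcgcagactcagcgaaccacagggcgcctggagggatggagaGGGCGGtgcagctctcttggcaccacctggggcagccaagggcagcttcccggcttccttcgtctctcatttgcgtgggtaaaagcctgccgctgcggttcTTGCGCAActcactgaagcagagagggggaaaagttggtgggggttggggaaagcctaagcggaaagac
Ptges: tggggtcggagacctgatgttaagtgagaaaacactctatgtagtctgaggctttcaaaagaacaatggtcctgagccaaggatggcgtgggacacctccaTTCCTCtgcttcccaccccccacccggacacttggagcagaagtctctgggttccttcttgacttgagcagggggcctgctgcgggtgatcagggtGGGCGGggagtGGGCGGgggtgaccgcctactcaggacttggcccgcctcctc
Ptgs2 also held the core of the cyclic AMP response element and the E-box after the start, and these overlap by 2 bases in a site at chr1:150100034-150100063.
Ptgs2 site: gtcaccactACGTCACGTGgagtccgcttt
Of all 32851 windows, 7.51% held the cyclic AMP response element core, 7.15% the E-box, 10.8% the C/EBP motif, 35.7% the GC box, 28.3% the PU.1 core, 13.6% the TATA box, 7.81% the AP-1 motif and 8.46% the kappaB motif. Windows were found for 8 of the 10 genes (not for Alox5ap or Alox15). Of these 8, the response element core and the E-box were in Ptgs2 alone, the C/EBP motif in Ptgs2 and Ptger2, the GC box in Ptgs2, Ptges, Ptger4 and Alox5, and the PU.1 core in 6. The TATA box, AP-1 and kappaB motifs were in none of the 8. These are matches of letters and not sites shown to be bound.

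Of the receptors that raise cyclic AMP, Ptger4 was called and Ptger2 was not. Ptger4, the EP4 receptor, was lower in G-MDSC, with signals of 818 and 637 against 3267 and 3746 in neutrophils at its brighter probe set. Replicates were close in both groups and the groups were well apart. The log2 difference came to -2.25 ± 0.31 (SE, n = 2 per group; limma adjusted p = 0.000832), or 4.76-fold lower. Its dimmer probe set read 71.3 and 103 against 308 and 522, and differed by -2.03 ± 0.48 (adjusted p = 0.0366 in the probe set fit). The Ptger4 call was lost with median scaling (-1.62, limma adjusted p = 0.256). With each array left out the difference ran from -2.43 to -2.07.

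Ptger2, the EP2 receptor, which couples to the same cyclic AMP pathway, read 467 and 309 in the G-MDSC arrays and 521 and 332 in the neutrophil arrays. The groups overlapped, and replicate 1 was the higher array in each. On the log2 scale G-MDSC differed by -0.13 ± 0.39, with a 95% confidence interval from -0.98 to 0.73 (limma adjusted p = 0.852). The interval allows a difference of nearly 1 log2 unit downward, and the sign turned with quantile normalization (0.06) and median scaling (0.48). Whether the differences of Ptger4 and Ptger2 differ from each other was not tested.

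**Figure D2:**
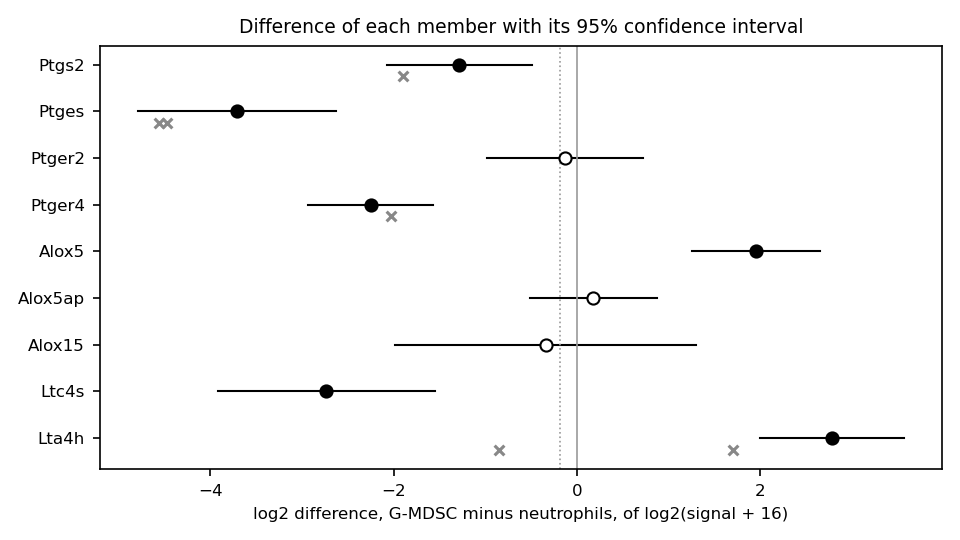
Log2 difference (G-MDSC minus neutrophils, log2(signal + 16)) of each gene by its brightest probe set, with the 95% confidence interval from limma (n = 2 per group). Filled circles were called, open circles were not, grey crosses are the gene's other probe sets, and the dotted line is the median of all genes. Alox5 and Lta4h lie above 0, at 1.96 and 2.78, and Ptgs2, Ptges, Ptger4 and Ltc4s lie below it. For Lta4h, 1 cross lies on the other side of 0.

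Alox5, the 5-lipoxygenase that starts leukotriene synthesis, was higher in G-MDSC. Its probe set read 5802 and 5529 in the G-MDSC arrays against 1794 and 1168 in the neutrophil arrays. The G-MDSC arrays nearly coincided, and both lay far above the neutrophil arrays. The groups differed by 1.96 ± 0.32 on the log2 scale (SE, n = 2 per group; limma adjusted p = 0.00213), or 3.88-fold higher. It ran from 1.65 to 2.26 with each array left out. With all arrays it was not called without the intensity trend (limma adjusted p = 0.0553).

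Alox5ap, the membrane protein that hands arachidonic acid to Alox5, was bright in every array and was not called. It read 31213 and 38782 in the G-MDSC arrays and 27524 and 34258 in the neutrophil arrays. The groups overlapped, and replicate 2 was the higher array in each. The log2 difference was 0.18 ± 0.32, with a 95% confidence interval from -0.52 to 0.88 (limma adjusted p = 0.735).

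Lta4h, the hydrolase that makes leukotriene B4, was higher in G-MDSC at its brightest probe set. This read 9795 and 5211 in the G-MDSC arrays and 1161 and 903 in the neutrophil arrays. G-MDSC replicate 1 was the highest array, and replicate 2 was also far above either neutrophil array. On the log2 scale G-MDSC differed by 2.78 ± 0.36 (SE, n = 2 per group; limma adjusted p = 0.000548), or 6.89-fold higher. A dimmer probe set read 810 and 183 against 126 and 94.0, a difference of 1.70 ± 0.65 that was not called in the probe set fit (adjusted p = 0.159). The dimmest read 15.6 and 62.6 against 55.0 and 98.4, with overlapping groups and a difference of -0.85 ± 0.89 (adjusted p = 0.603). With the median of the 3 probe sets the call was lost (1.67, limma adjusted p = 0.0779). The 3 probe sets disagreed in size, and the dimmest also in the sign of its difference.

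The promoters of Alox5 and Lta4h, the enzymes of the leukotriene B4 branch that were higher in G-MDSC, are shown in the same way for comparison with those of Ptgs2 and Ptges. The stretch of Alox5 is chr6:116461179-116461428 on the minus strand and that of Lta4h is chr10:93453146-93453395 on the plus strand, and capitals mark the same 8 motifs.
Alox5: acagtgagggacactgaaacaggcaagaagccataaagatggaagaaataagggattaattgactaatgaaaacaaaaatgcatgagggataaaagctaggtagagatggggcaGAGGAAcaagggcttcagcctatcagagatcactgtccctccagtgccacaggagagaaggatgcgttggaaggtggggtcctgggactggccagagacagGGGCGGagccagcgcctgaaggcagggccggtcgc
Lta4h: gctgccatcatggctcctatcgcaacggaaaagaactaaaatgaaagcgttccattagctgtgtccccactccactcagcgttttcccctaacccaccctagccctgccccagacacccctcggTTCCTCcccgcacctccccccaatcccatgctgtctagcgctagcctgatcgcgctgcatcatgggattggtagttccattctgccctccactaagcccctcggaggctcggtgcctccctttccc
Alox5 held 1 GC box, from -35 to -30 relative to the start, and 1 PU.1 core, and Lta4h held 1 PU.1 core. The response element core, the E-box and the C/EBP motif were found in neither window, nor in that of Ptges.

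Ltc4s, the synthase that joins glutathione to leukotriene A4 and so opens the cysteinyl leukotriene branch, went the other way from Lta4h. It read 83.1 and 134 in the G-MDSC arrays and 425 and 1471 in the neutrophil arrays. Both G-MDSC arrays lay below both neutrophil arrays, and neutrophils replicate 2 stood well above replicate 1. The groups differed by -2.73 ± 0.54 on the log2 scale (SE, n = 2 per group; limma adjusted p = 0.00585), or 6.65-fold lower in G-MDSC. The difference was -3.61 without neutrophils replicate 1 and -1.86 without neutrophils replicate 2. With all arrays it was not called without the intensity trend (limma adjusted p = 0.0782).

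Alox15 was above the 40th percentile in 3 of 4 arrays. It read 62.1 and 83.4 in the G-MDSC arrays and 50.8 and 171 in the neutrophil arrays, so the neutrophil arrays enclosed those of G-MDSC. Neutrophils replicate 1 was under the 40th percentile of its array. The log2 difference was -0.34 ± 0.75 (limma adjusted p = 0.786), with a 95% confidence interval from -1.98 to 1.30 and a sign that turned without neutrophils replicate 2 (0.40) and with quantile normalization (0.21) and median scaling (0.22). A difference in Alox15 was not detectable with this spread.

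**Figure D3:**
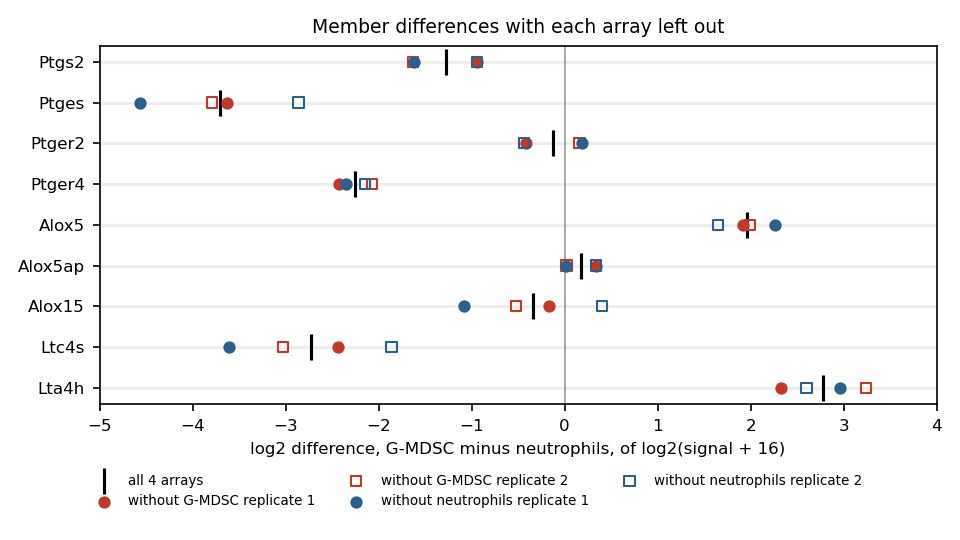
Log2 difference (G-MDSC minus neutrophils, log2(signal + 16)) of the 9 genes over all 4 arrays (black bars) and with each array left out (red circles and squares, without G-MDSC replicate 1 and 2; blue circles and squares, without neutrophils replicate 1 and 2). Ptges and Ltc4s move most with the neutrophil arrays, from -4.56 to -2.86 and from -3.61 to -1.86, and Ptger2 and Alox15 cross 0.

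The rest of the pathway was described with a list of 69 further genes, of which 61 had a probe set with 1 symbol and 46 passed the filter on dim signals. Of these 46, 6 were called higher and 10 lower in G-MDSC, against 8.3% and 8.05% of all genes. Their median difference was -0.38, and that of all genes was -0.18. With median scaling these medians were 0.19 and 0.41, and with quantile normalization -0.06 and 0.03. Without neutrophils replicate 2 they were -0.07 and 0.03, and without neutrophils replicate 1 they were -0.87 and -0.35. With median scaling 7 of the 46 were called, where 1319 of all 13139 genes were. With quantile normalization 11 were called, and 10 of the 16 calls remained: those of Pla2g4a, Pla2g15, Akr1b8, Cbr3, Ggt5 and Gpr18 were lost. Abcc1, Mgst2 and Cmklr1 were the 3 genes of the 16 whose call remained with every array left out.

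Of 12 genes tested in a list of phospholipases and of genes tied to arachidonic acid, 2 were lower and 1 higher, against 8.05% and 8.3% of all genes. Pla2g4a, the cytosolic phospholipase A2 that releases arachidonic acid, read 416 and 481 in the G-MDSC arrays against 901 and 1619 in the neutrophil arrays (-1.40 ± 0.36 on the log2 scale, limma adjusted p = 0.0231). Acsl4, which activates arachidonic acid for storage in lipids, read 1103 and 616 against 3056 and 2392 (-1.69 ± 0.35, limma adjusted p = 0.00796). Pla2g15, a lysosomal phospholipase, read 1089 and 1174 against 642 and 346, a difference of 1.23 ± 0.37 (limma adjusted p = 0.0409) that was not called without either G-MDSC sample or without neutrophils replicate 2 (0.80). Pla2g4a was no longer called with either G-MDSC sample left out (adjusted p = 0.158 and 0.0765) and Acsl4 was no longer called without G-MDSC replicate 2 (-1.28, adjusted p = 0.120). With median scaling the differences of Pla2g4a and Acsl4 were -0.78 and -1.06 and were not called (adjusted p = 0.563 and 0.494). Pla2g15 was not called with median scaling either, nor with the median of its probe sets (0.75).

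Among the other prostanoid synthases, 3 of 6 were lower in G-MDSC and 0 higher, against 8.05% and 8.3% of all genes. Tbxas1, thromboxane synthase, read 363 and 288 in the G-MDSC arrays and 797 and 1069 in the neutrophil arrays (-1.47 ± 0.34 on the log2 scale, limma adjusted p = 0.0141). Prxl2b, a prostamide and prostaglandin F synthase, differed by -2.18 ± 0.48, and Akr1b8, an aldo-keto reductase, by -2.16 ± 0.61. The Tbxas1 call was lost when G-MDSC replicate 1 or 2 was left out (adjusted p = 0.0678 and 0.174), that of Prxl2b without replicate 2 (adjusted p = 0.108) and that of Akr1b8 without replicate 1 (adjusted p = 0.342). With median scaling Tbxas1 was at -0.85 and not called (adjusted p = 0.458). Ptges2, another prostaglandin E synthase, read 439 and 413 against 440 and 376, with overlapping groups and a difference of 0.06 ± 0.34. The 95% confidence interval of the Ptges2 difference ran from -0.69 to 0.82. Hpgds, the haematopoietic prostaglandin D synthase of mast cells, was above the 40th percentile in 2 of 4 arrays (48.6 and 49.4 against 24.4 and 150) and was not called (-0.33 ± 0.96). Ptges3 had no probe set with a single symbol and was not analysed here.

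Of 4 other prostanoid receptors tested, 1 was higher, against 8.3% of all genes. This was Ptger3, the EP3 receptor, which lowers cyclic AMP rather than raising it, and which read 288 and 475 in the G-MDSC arrays against 77.5 and 28.0 in the neutrophil arrays. The groups were apart, but neutrophils replicate 2 was far under the 40th percentile of its array (132.7). On the log2 scale G-MDSC differed by 2.59 ± 0.56 (SE, n = 2 per group; limma adjusted p = 0.00982), and Ptger3 was not called with either G-MDSC sample left out (adjusted p = 0.105 and 0.374). With signals floored at the 40th percentile the difference was 1.87, still called, and with each array left out it ran from 2.05 to 3.14. Without neutrophils replicate 2 the group held 2 calls, 1 higher and 1 lower. Ptgir, the prostacyclin receptor, read 391 and 190 against 460 and 346 and was not called (-0.52 ± 0.42).

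Of 7 genes of prostanoid transport and breakdown, 1 was lower and 1 higher, against 8.05% and 8.3% of all genes. Abcc1, an exporter of leukotriene C4 and of other glutathione conjugates, read 432 and 253 in the G-MDSC arrays and 6792 and 4217 in the neutrophil arrays. Its difference of -3.95 ± 0.37 on the log2 scale was 15.5-fold (limma adjusted p = 6.1e-05). Cbr3, a carbonyl reductase, was higher, at 1152 and 1582 against 687 and 408 (1.32 ± 0.36, limma adjusted p = 0.0282), but not when either G-MDSC sample was left out (adjusted p = 0.0763 and 0.305) or with median scaling (adjusted p = 0.0883). Hpgd, the dehydrogenase that inactivates prostaglandins, read 203 and 123 against 119 and 108 and was not called (0.43 ± 0.53).

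Of 11 other lipoxygenase and leukotriene enzymes, 2 were higher and 0 lower, against 8.3% and 8.05% of all genes. Mgst2, a microsomal glutathione transferase that can also make leukotriene C4, read 5279 and 3615 in the G-MDSC arrays and 832 and 442 in the neutrophil arrays. The groups were far apart, and the log2 difference of 2.81 ± 0.37 (SE, n = 2 per group; limma adjusted p = 0.00063) was opposite in sign to that of Ltc4s. Ggt5, a glutamyl transferase that trims leukotriene C4, read 2456 and 2722 against 1520 and 696 (1.32 ± 0.38, limma adjusted p = 0.0366), but its median over 3 probe sets was 0.34 and not called, and it was not called without neutrophils replicate 2 (0.76), without either G-MDSC sample or with median scaling. Without that neutrophil array the group thus held 1 call in place of 2. Ephx2, a soluble epoxide hydrolase, was above the 40th percentile in 2 of 4 arrays and not called (-0.86 ± 0.81). It read 64.7 and 44.7 against 50.3 and 229, with overlapping groups. The difference of Ephx2 was -1.81 without neutrophils replicate 1, and its sign turned without neutrophils replicate 2.

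Of 6 genes tested in the list of leukotriene and lipid mediator receptors, 4 were lower and 1 higher in G-MDSC. Among all genes 8.05% were lower and 8.3% higher. The leukotriene receptors Ltb4r1 and Cysltr1 went opposite ways. Ltb4r1, the high-affinity receptor for leukotriene B4, read 7093 and 6823 in the G-MDSC arrays against 3730 and 2516 in the neutrophil arrays (1.18 ± 0.31 on the log2 scale, limma adjusted p = 0.0255). Cysltr1, a receptor for cysteinyl leukotrienes, read 112 and 149 against 502 and 436 (-1.73 ± 0.40, limma adjusted p = 0.0127). Cmklr1, a chemerin receptor, read 46.8 and 96.5 against 1644 and 1843 and had the largest difference of the 46 genes (-4.39 ± 0.39, limma adjusted p = 5.4e-05). The receptors Gpr31b and Gpr18 were lower, with log2 differences of -2.32 ± 0.53 and -1.15 ± 0.36. The calls of Ltb4r1, Cysltr1, Gpr31b and Gpr18 did not hold with either G-MDSC sample left out (adjusted p = 0.0639 to 0.337). Those of Ltb4r1, Cysltr1 and Gpr18 were also lost with median scaling, and that of Gpr18 without neutrophils replicate 2.

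**Figure D4:**
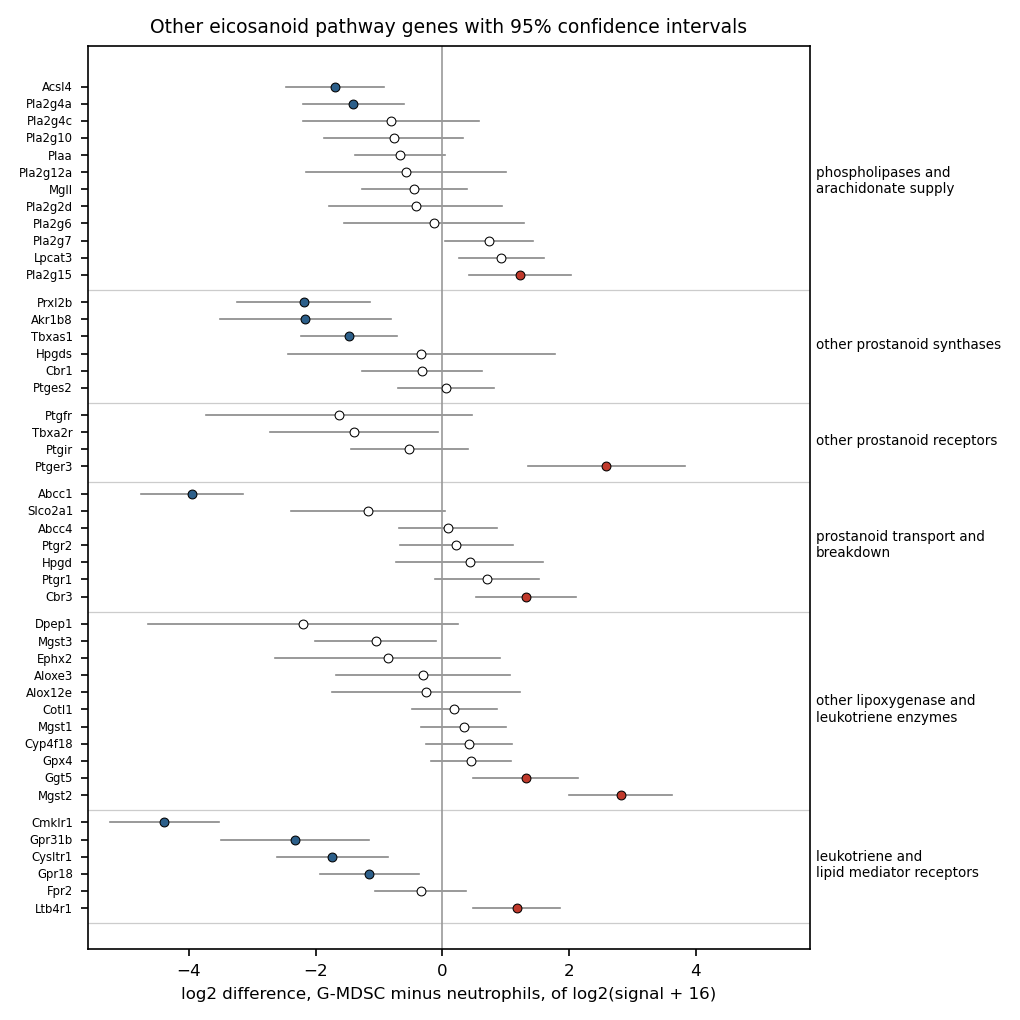
Log2 difference (G-MDSC minus neutrophils, log2(signal + 16)) of the 46 further pathway genes tested, with 95% confidence intervals from limma (n = 2 per group), ordered within 6 groups of function. Red points were called higher, blue points lower, and white points were not called. The 10 lower genes include Cmklr1 (-4.39) and Abcc1 (-3.95), and the 6 higher ones include Mgst2 (2.81) and Ptger3 (2.59).

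Some markers of other cells moved with the groups in the same direction as Ptgs2, Ptges, Ptger4 and Ltc4s. For comparison with the counts of each list, 8.05% of all genes were called lower and 8.3% higher with all 4 arrays. Of 19 macrophage markers tested, 11 were lower in G-MDSC and 0 higher, with a summed signal of 19120 to 19310 in G-MDSC and 47516 to 71061 in neutrophils. Adgre1, which encodes F4/80, read 817 and 643 against 4847 and 7136, a log2 difference of -2.99 ± 0.32, while Csf1r, the receptor for a macrophage growth factor, was not called (-0.59). Of 9 monocyte markers, 6 were lower and 0 higher (19223 to 36285 against 75698 to 100522). Of 11 mast cell markers, 6 were lower and 0 higher (18932 to 22311 against 31298 to 41844), and 5 of the 12 summed were under the 40th percentile in both G-MDSC arrays. Cpa3, a mast cell protease, read 319 and 231 against 5206 and 2103 (-3.53 ± 0.42), and the chymase Cma1 read 17.7 and 9.44 against 4591 and 1551. Kit, the mast cell growth factor receptor, leaned the other way without being called (2003 and 3146 against 1551 and 417, a log2 difference of 1.62), and most of the G-MDSC sum was Hdc, histidine decarboxylase (15256 and 18052), also not called (-0.54). Of 10 platelet markers, 2 (Pf4 and Ppbp) were lower and 0 higher (1682 to 2045 against 6809 to 19881), while Itga2b (557 and 645 against 387 and 439), Gp9 (86.0 and 48.0 against 135 and 41.2) and Clec1b (log2 difference 1.24) were not called. Without Pf4 and Ppbp the platelet sums were 1880 and 1547 against 1351 and 1999, and the groups overlapped. The sums of macrophage, monocyte and platelet markers were highest in neutrophils replicate 2, where Ptges and Ltc4s were also highest. In that array the sums of B and T cell markers (7904) and of mesothelial and stromal markers (1701) were highest too. Its median signal over all probe sets (177.9) was also the highest. The sum of mast cell markers was highest in neutrophils replicate 1. Without neutrophils replicate 2 the lists held 11 macrophage, 7 monocyte, 7 mast cell and 2 platelet markers called lower. Macrophages, monocytes, mast cells and platelets can make eicosanoids, and Ltc4s and Hpgds are known in mast cells. The part of these cells in the differences of Ptgs2, Ptges, Ptger4, Ltc4s and the other genes lower in G-MDSC was not tested.

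Of 3 eosinophil markers tested, 0 were called by limma, 1 having an unadjusted p under 0.05 (851 to 1659 against 460 to 971 in the sum of 5; 2 were higher without neutrophils replicate 2). Siglecf, an eosinophil lectin, read 604 and 1253 against 305 and 451 and was not called (1.20, adjusted p = 0.0703), and Epx, eosinophil peroxidase, was under the 40th percentile of all 4 arrays. Of 13 neutrophil markers, 4 were higher and 0 lower in G-MDSC, against 8.3% and 8.05% of all genes, and 9 were not called. The 4 were Cxcr2 (7230 and 10599 against 4625 and 2963, a log2 difference of 1.24) and the granule protein genes Camp, Ltf and Ngp, with larger log2 differences of 5.10, 4.38 and 2.54. The uncalled S100a8 and S100a9 had differences of -0.31 and -0.45. The summed signal of the list was 330983 to 413405 in G-MDSC against 247858 to 281069 in neutrophils. Without Camp, Ltf and Ngp, a choice made after their values were seen, it was 232381 and 307242 against 232041 and 275463, and the groups overlapped. Alox5, Lta4h and Ltb4r1 were higher in G-MDSC as Camp, Ltf and Ngp were, and the part of these granule genes' change in that result was not tested. With limma, B and T cell markers had 0 of 8 called (1 at an unadjusted p under 0.05) and mesothelial and stromal markers 0 of 5 (2 at that level).

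**Figure D5:**
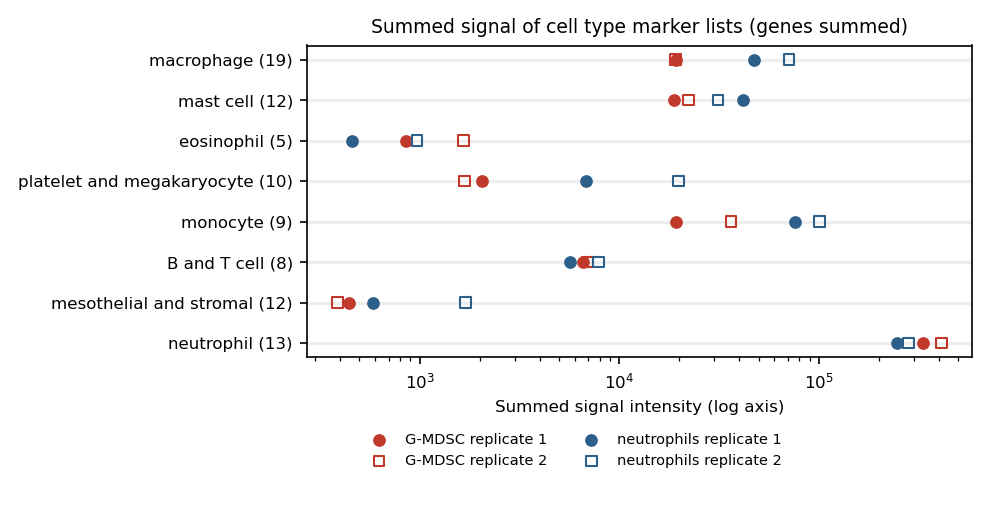
Summed signal intensity (log axis) of 8 lists of cell type markers in each array, with the number of genes summed in brackets. Red marks are G-MDSC and blue marks neutrophils, filled circles replicate 1 and open squares replicate 2. Macrophage, monocyte, mast cell and platelet sums are higher in both neutrophil arrays, and the neutrophil marker sum is higher in both G-MDSC arrays. The platelet gap rests on Pf4 and Ppbp and the neutrophil gap on Camp, Ltf and Ngp, without which the sums overlap.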

How the data were processed

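Expression was measured on 1 Affymetrix array per sample. The intensity values deposited by the authors are linear signals. The tools named, per the submitters' processing notes, are GCOS 1.4 and the MAS5 algorithm. The mean signal is 500.0 in each array when 2% of the 45101 probe sets are trimmed at each end. A genome build is not given in the sources used here. With 2 arrays per group, their number limits the precision. R 4.3.3 with limma 3.58.1 was used, and Python 3.11.15 with pandas 2.3.3 and matplotlib 3.10.9. Probe sets above the 40th percentile of their array in at least 2 of 4 arrays were kept (28754), and the brightest of these on average stood for each gene (13139 genes), and log2(signal + 16) was fitted with lmFit and eBayes with an intensity trend. A second fit took all kept probe sets. Tests were two-sided, with Benjamini-Hochberg adjustment and a threshold of 0.05. Folds are on the log2(signal + 16) scale and understate changes of dim genes. An exact permutation test of 2 against 2 cannot go below 0.33, so none was used. Members, pathway genes and marker lists were chosen with earlier results of these data known. Named were all members, all called pathway genes, 12 pathway genes fixed by name whatever their values, and fixed markers. Of those 12, Pla2g4a, Tbxas1, Ptger3, Ltb4r1, Cysltr1 and Mgst2 were also called, and Ptges3 could not be tested. Marker genes beyond the fixed ones (Pf4, Ppbp, Clec1b, Kit, Hdc, Camp, Ltf, Ngp, S100a8 and S100a9) were named, and marker sums without some of them computed, after their values were seen. The script was tested on simulated data. The 16 alternatives covered pseudocount, filter, a floor, normalization, variance model, probe set choice, replicate block and each array left out. Counts of the pathway groups and marker lists without neutrophils replicate 2 were added after seeing the data.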

Additional observations from a re-analysis of the deposited data

How the results depend on the processing

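Calls rested on limma's moderation: without it 0 genes, 0 probe sets, 0 of the 9 members and 0 pathway genes passed, with 2379, 4212, 4 and 9 below an unadjusted p of 0.05. With no trend in the variance prior 479 genes, 226 probe sets, 3 members and 4 pathway genes passed. With median scaling 1319 genes, 1110 probe sets and 7 pathway genes were called, and with quantile normalization 1397 probe sets and 11 pathway genes, 10 of them among the 16. The replicate numbers are not stated to pair the samples; with the replicate block 3306 genes and 5552 probe sets were called, or 5630 probe sets with quantile normalization as well, and all 6 called members and all 16 called pathway genes remained called with the block alone. With each array left out, the counts ran from 1003 to 5891 genes, 1273 to 7893 probe sets, 5 to 6 members and 4 to 28 pathway genes; these fits assume that a lone array varies like the others. Without neutrophils replicate 2 the groups of pathway genes held 15 calls against 16. Of the members, Ptgs2 kept its call in 11 of 16 alternatives, Ptges in 15, and Ptger4, Alox5, Ltc4s and Lta4h in 14, all with their direction. Signs turned for uncalled genes: Ptger2 (0.06 with quantile normalization and with its blocked form, 0.48 with median scaling, 0.16 with G-MDSC replicate 2 left out, 0.19 and -0.44 without neutrophils replicate 1 and 2), Alox15 (0.21, 0.21 and 0.22 with these scalings, -1.08 and 0.40 without neutrophils replicate 1 and 2), Hpgds (0.23, 0.23, 0.22, -1.35 and 0.69 likewise), Ptges2 (0.17 and -0.04) and Ephx2 (-1.81 and 0.08) without neutrophils replicate 1 and 2, Ptgir (0.08) with median scaling and Hpgd (-0.30) with the median of probe sets. The causes were not tested.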
